A study of Mus musculus with 5 samples.

Results

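The serpins are a family of proteins with 1 shared fold, named for the serine protease inhibitors among them. They were described here in mouse NT2.5 mammary tumour cells and in sub-lines of these cells with a labelled bone or liver metastasis preference. Members were all probe sets annotated with a single gene symbol that starts with Serpin, and the probe set with the highest mean of log2(intensity + 16) stood for its gene. This gave 40 genes on 56 probe sets, of 18193 genes with 1 symbol on the array. Of the 40, 16 reached the median of all values on the platform (an intensity of 25.1) on at least 1 array and could be tested, among 12609 genes tested in all.

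A typical serpin traps a protease that cuts its exposed reactive loop: the loop inserts into the body of the serpin and the protease is left inactive. Some members have lost this function and act as chaperones, hormone carriers or signalling proteins. Extracellular members made largely by the liver restrain clotting, plasmin and neutrophil elastase, while the intracellular group, clade B, protects cells from their own granule and lysosomal proteases. In breast cancer the family is known for the control of plasmin, for maspin (Serpinb5), studied as a tumour suppressor, and for pigment epithelium-derived factor (Serpinf1), an inhibitor of angiogenesis.

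The 5 arrays held 1 RNA sample each. The bone sub-line was sampled at passages 3 and 6. For the liver sub-line passages 1 and 3 were taken. In each sub-line the first of these is called early here and the other final, so passage 3 is early in bone and final in liver. Both sub-lines were set against 1 sample of the wild-type parental line, whose labelled sites are bone, liver and lung. NT2.5 is a line from a mammary tumour of a mouse with a neu transgene, and all 5 samples derive from it. Each sub-line is 1 lineage, so its passages are not independent isolates. A p-value here reflects no more than the spread between passages within the sub-lines, together with a prior from all genes tested. That spread may be technical, and the single parental sample adds nothing to it.

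The median intensity of all probe sets lay between 21.9 and 26.4 per array. Of 7 genes chosen as markers of the tumour epithelium, 6 were above the filter (Krt19 was not), with a summed intensity of 21896 to 25743 in the bone sub-line, 21652 to 22506 in liver and 23825 in parental cells. Many serpins are hepatocyte products, and 8 of 9 hepatocyte markers, with Alb, Ttr and Apoa1 among them, were below 25.1 on every array. Summed over the 9 genes, they gave 50.3 and 88.6 in bone, 86.8 and 87.5 in liver and 97.6 in parental cells. Markers of other cell types above the filter numbered 4 of 6 for osteoblasts and bone stroma, 1 of 5 for endothelium and 5 of 8 for lymphocytes, neutrophils and mast cells. No detection calls were used, so a low intensity is described as low and not as absence.

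Serpinf1 encodes pigment epithelium-derived factor, a secreted serpin that does not inhibit proteases, blocks new vessel growth and binds collagen. Its intensity was 175.6 and 220.6 at bone passages 3 and 6, and 494.5 and 376.0 at liver passages 1 and 3, against 1589 in parental cells. All 4 sub-line arrays lay below the parental one, and both bone arrays lay below both liver arrays. In the bone sub-line it fell 7.54-fold, a log2 difference of -2.91 between 2 bone arrays and 1 parental array (limma adjusted p = 0.0380). The SE of 0.27 came from the fit over all arrays, liver included, and ± is an SE from here on. The single parental array adds no spread to this SE. Serpinf1 was the only 1 of the 16 members called for bone against parental cells, where 0.0634% of all genes tested were called lower. Serpinf1 was 3.59-fold lower in the liver sub-line than in parental cells (-1.84 ± 0.27), which did not pass over all genes (limma adjusted p = 0.194; unadjusted p = 0.000444). The bone call was lost when liver arrays were left out of the fit, 1 or both (adjusted p = 0.0965), with no filter (0.190), with a pseudocount of 1 (0.103) and narrowly with the mean of the probe sets (0.05003).

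A second probe set for Serpinf1 gave 150.4 and 73.1 in bone and 253.5 and 181.8 in liver, against 810.0 in parental cells. On the log2 scale its differences from parental cells were -2.76 for bone and -1.84 for liver. Both probe sets thus placed the 3 lines in the same order, bone below liver below parental. Within bone they differed, as the first was lower at passage 3 and the second at passage 6. Between bone and liver, the first gave -1.07 ± 0.22 (n = 2 passages each; limma adjusted p = 0.145) and the other -0.92, and the difference between the sub-lines did not pass. In bulk RNA, fewer cells that express a gene and less RNA per cell cannot be told apart. Serpinf1 is also made by fibroblasts, and of 7 fibroblast markers 6 (Pdgfrb, Dcn, Lum, Thy1, Col3a1 and Fap) were below 25.1 on every array. Their sum with Pdgfra was 108.0 and 103.3 in bone, 192.6 on each of the liver arrays and 185.1 in parental cells. Much of this was Pdgfra alone, with 71.6 and 48.8 in bone, 138.3 and 124.5 in liver and 132.2 in parental cells. The part of such cells in the level of Serpinf1 was not tested.

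**Figure D1:**
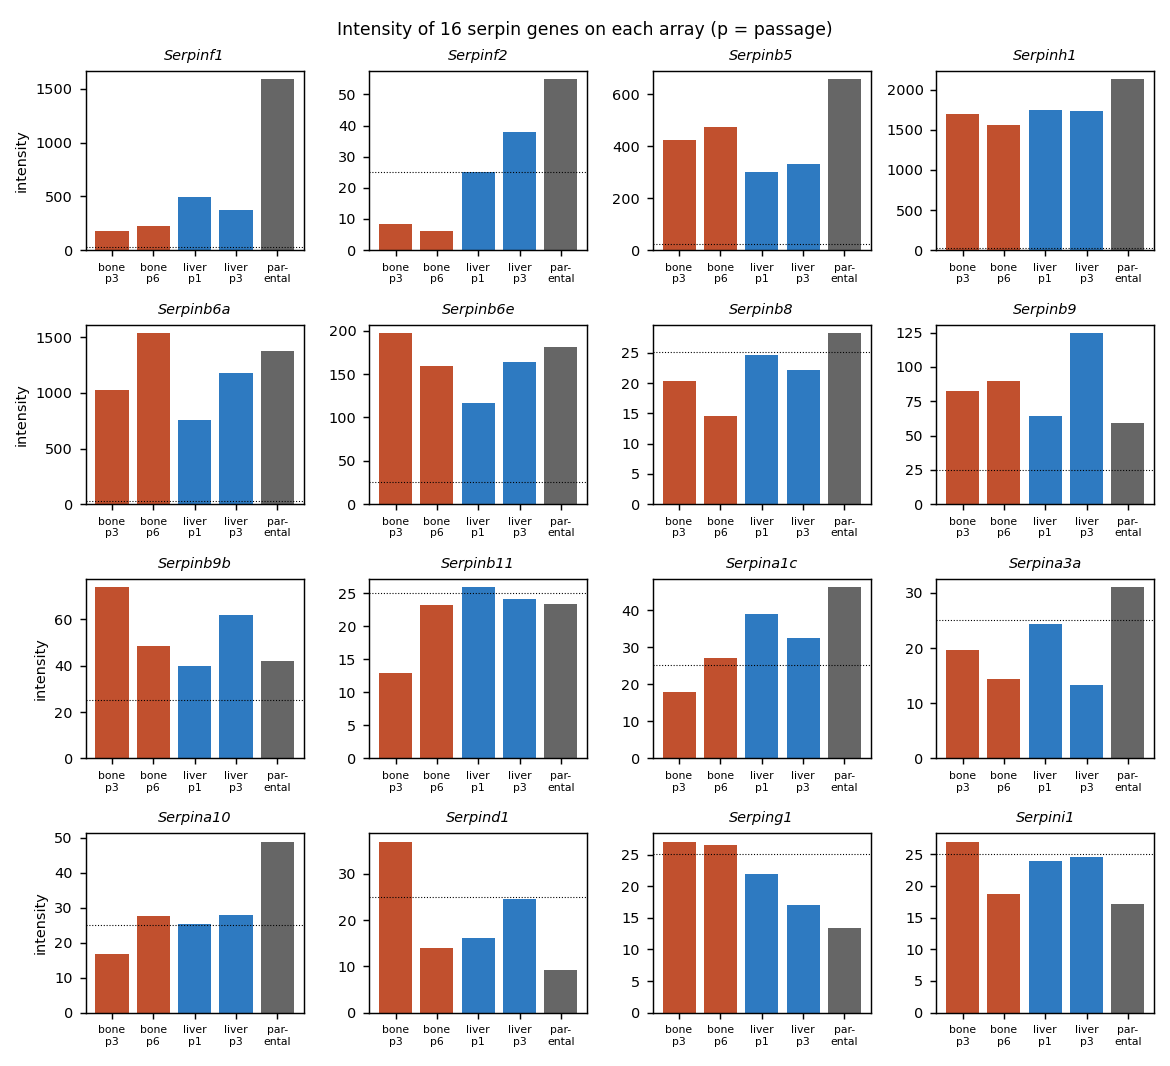
Intensity (linear y axis from 0, a separate scale in each panel) of the 16 serpin genes that could be tested, with 1 bar per array: bone passages 3 and 6 (red), liver passages 1 and 3 (blue) and parental cells (grey). The dotted line is the filter at 25.1. Serpinf1 stood at 175.6 to 494.5 in the sub-lines against 1589 in parental cells, whereas Serpinh1 stood at 1559 to 1746 against 2132.

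Serpinf2 encodes alpha 2-antiplasmin, the main fast inhibitor of plasmin in blood, and is the next protein-coding gene to Serpinf1 on chromosome 11, with a noncoding RNA gene and a pseudogene between them in the RefSeq annotation. Its intensity was 8.4 and 6.1 in bone and 25.1 and 37.8 in liver, against 54.9 in parental cells. The order of the 3 lines was that of Serpinf1, with both bone arrays below the filter and the parental array above it. The difference of bone from parental cells was -1.61 ± 0.26 on the log2 scale (limma adjusted p = 0.120; unadjusted p = 0.000682) and did not pass, nor did that of liver (-0.59 ± 0.26; adjusted p = 0.682) or that of bone from liver (-1.02 ± 0.21; adjusted p = 0.145). Serpinf1 and Serpinf2 were the 2 members at least 2-fold below parental cells on both bone arrays, where 1.14% of all genes tested were. Serpinf1 was the only member so on both liver arrays, where 0.944% of all genes were. No tested member was at least 2-fold above parental cells on both arrays of a sub-line, as 0.999% of genes were in bone and 0.857% in liver, and none was 2-fold apart between bone and liver in every pair of arrays (0.619% of genes lower, 0.444% higher).

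The 3 protein-coding genes on either side of the pair were looked at for their position, outside the naming rule. The nearest neighbours, Smyd4 and Wdr81, had log2 differences from parental cells of 0.05 and 0.40 in bone and of 0.34 and 0.24 in liver. Neither was below parental cells in its line means. Further out, Rpa1, Tlcd2 and Prpf8 had differences between -0.54 and 0.19. Rtn4rl1, at the edge, was lower, with -0.60 in bone and -1.32 in liver, at intensities of 20.4 and 11.6 in bone and 2.3 and 4.0 in liver against 31.9 in parental cells, the only array on which it reached the filter.

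**Figure D2:**
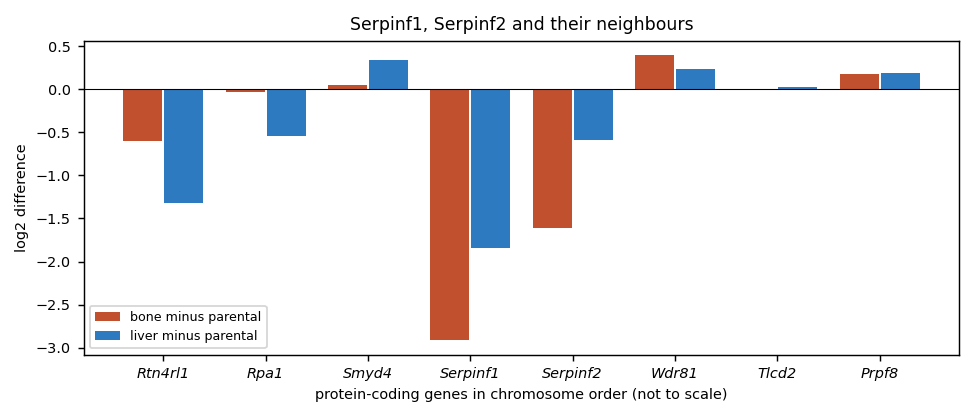
Log2 difference from parental cells (y axis) of Serpinf1, Serpinf2 and the 3 protein-coding genes on each side of them, in chromosome order and not to scale, for the bone (red, left bar) and liver (blue, right bar) sub-lines. Serpinf1 (-2.91 and -1.84) and Serpinf2 (-1.61 and -0.59) stand between Smyd4 (0.05 and 0.34) and Wdr81 (0.40 and 0.24).

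The start regions of Serpinf1, Serpinf2 and Serpinb5 are shown because these were the 2 tested members with the most negative log2 difference from parental cells in each sub-line. RefSeq windows (build GRCm38.p6) hold the 250 bases before and 50 after a gene's start and were matched by symbol for 34 of the 40 members. They were searched on both strands for 4 motifs chosen with the windows in view, none of which overlaps another in these 3 windows. The motifs are the nuclear receptor half-site AGGTCA, the M-box core CATGTG, the GC box GGGCGG and the TATA box TATAAA. Matches are in capitals, in either orientation.
Serpinf1, chr11:75422574-75422873, minus strand: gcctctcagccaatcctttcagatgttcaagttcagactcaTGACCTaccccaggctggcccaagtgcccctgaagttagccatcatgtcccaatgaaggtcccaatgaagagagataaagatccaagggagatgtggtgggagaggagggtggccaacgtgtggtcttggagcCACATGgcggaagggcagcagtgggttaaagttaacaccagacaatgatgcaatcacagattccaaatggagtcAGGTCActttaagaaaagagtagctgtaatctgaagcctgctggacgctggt
Serpinf2, chr11:75439452-75439751, minus strand: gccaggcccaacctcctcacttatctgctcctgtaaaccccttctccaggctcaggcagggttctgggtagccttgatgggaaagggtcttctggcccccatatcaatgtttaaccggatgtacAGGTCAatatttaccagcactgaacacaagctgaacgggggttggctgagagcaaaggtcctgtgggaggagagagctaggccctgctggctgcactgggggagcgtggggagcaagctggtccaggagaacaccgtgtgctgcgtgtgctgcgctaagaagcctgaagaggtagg
Serpinb5, chr1:106860925-106861224, plus strand: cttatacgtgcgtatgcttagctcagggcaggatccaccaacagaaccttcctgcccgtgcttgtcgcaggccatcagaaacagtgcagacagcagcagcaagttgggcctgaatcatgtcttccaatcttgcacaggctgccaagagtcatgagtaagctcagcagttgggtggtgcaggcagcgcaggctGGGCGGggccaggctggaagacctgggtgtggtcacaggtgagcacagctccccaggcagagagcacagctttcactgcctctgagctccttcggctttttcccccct

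The Serpinf1 window held AGGTCA at 2 places, the second of them across the annotated start, and 1 CATGTG. The Serpinf2 window held 1 AGGTCA, and the Serpinb5 window held 1 GGGCGG. Of 32851 windows, 16.3% held AGGTCA, 14.2% CATGTG, 35.7% GGGCGG and 13.6% TATAAA. These windows leave out 1 chromosome, which holds no member, and some genes have several, whereas each member was counted with 1. Among the 34 members with a window, 9 held AGGTCA, 7 CATGTG, 7 GGGCGG and 8 TATAAA. A match is a stretch of letters and not a shown binding site. The windows of Serpinf1, Serpinf2 and Serpinb5 had 3, 6 and 7 CG dinucleotides, with a median of 7 over 27025 genes taken with 1 window each.

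Serpinb5, maspin, is a non-inhibitory clade B serpin of mammary epithelium. Its intensity was 424.6 and 475.4 in bone and 302.7 and 331.2 in liver, against 658.9 in parental cells. The order of the lines differs from that of Serpinf1, with liver below bone below parental. The liver sub-line was 2.03-fold lower than parental cells (-1.02 ± 0.22; limma adjusted p = 0.325; unadjusted p = 0.00360), and the bone sub-line 1.45-fold lower (-0.54 ± 0.22; adjusted p = 0.615). Neither passed, and the difference of bone from liver did not pass either (0.48 ± 0.18; adjusted p = 0.324).

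Serpinb5 had 4 probe sets, the most of any member. Their log2 differences from parental cells ran from -0.93 to -0.54 in bone and from -1.07 to -0.92 in liver. All 4 lay below the parental level on each of the sub-line arrays. Between bone and liver they gave 0.14 to 0.48.

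Serpinh1 encodes Hsp47, the chaperone of the endoplasmic reticulum that folds procollagen, and has no protease target. It stood at 1694 and 1559 in bone and 1746 and 1734 in liver, against 2132 in parental cells. The log2 differences of -0.39 ± 0.22 for bone and -0.29 ± 0.22 for liver did not pass (limma adjusted p = 0.727 and 0.820). A second probe set gave -0.42 and -0.30. Bone and liver differed by -0.10, with a 95% interval of -0.53 to 0.33.

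**Figure D3:**
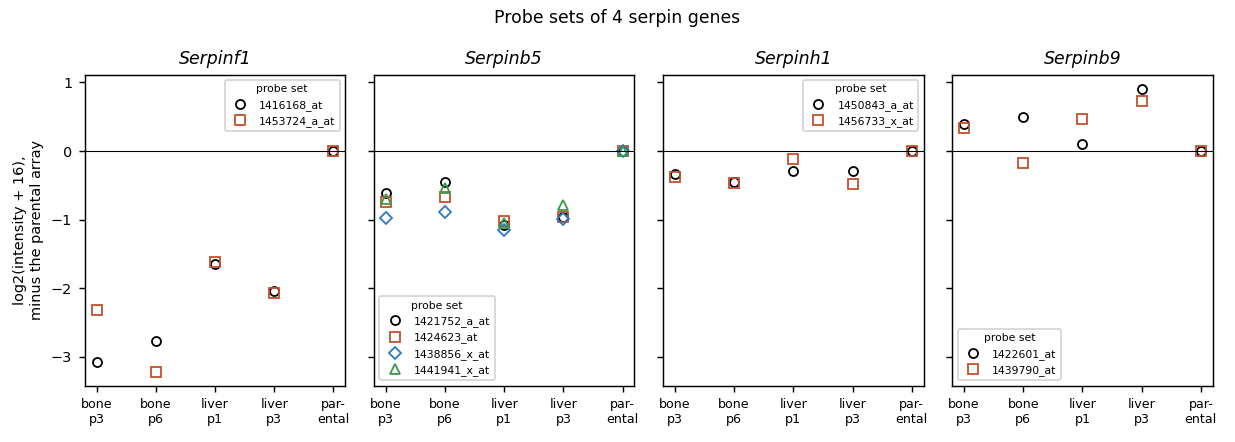
Log2(intensity + 16) of every probe set of Serpinf1, Serpinb5, Serpinh1 and Serpinb9 on each array, minus its own value on the parental array (y axis). Both probe sets of Serpinf1 and all 4 of Serpinb5 lie below 0 on the sub-line arrays, whereas those of Serpinb9 differ in sign at bone passage 6.

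The clade B inhibitors act inside cells. Serpinb6a, whose human counterpart inhibits cathepsin G, stood at 1026 and 1536 in bone and 760.1 and 1176 in liver, against 1377 in parental cells. It was higher at the later passage of each sub-line, by 0.57 on the log2 scale in bone and by 0.62 in liver, and the parental value lay within the range of the bone arrays. Its paralogue Serpinb6e was read by a probe set of the x_at type, whose probes can match related transcripts, and stood at 196.9 and 159.3 in bone and 117.0 and 164.4 in liver, against 180.7 in parental cells. These 2 genes did not move together between the bone passages, where Serpinb6e had -0.28.

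Serpinb9 protects cells from granzyme B. It stood at 82.5 and 89.6 in bone and 64.2 and 124.4 in liver, against 58.8 in parental cells. All sub-line arrays were above the parental one, by a log2 difference of 0.45 ± 0.35 in bone and 0.50 ± 0.35 in liver, and neither passed (limma adjusted p = 0.835 and 0.809). Its second probe set gave 27.8 and 14.6 in bone and 32 and 41.3 in liver, against 18.7 in parental cells, so that it lay below the parental array at bone passage 6. The neighbouring Serpinb9b stood at 73.7 and 48.5 in bone and 39.7 and 61.7 in liver, against 41.8 in parental cells. Macrophages also express Serpinb9, and 6 of 8 macrophage markers were above the filter (Clec4f and Marco were not). Their summed intensity over the 8 genes was 715.4 and 1184 in bone, 788.9 and 743.8 in liver and 523.1 in parental cells. Most of the sum in bone and parental cells was Cd14, with 450.2 and 928.2 in bone and 212.2 and 242.0 in liver, against 336.0 in parental cells. The markers Cd68 and Csf1r, chosen after their values were seen, were highest in liver. Cd68 stood at 103.2 and 74.8 in bone and 173.1 and 172.0 in liver, against 52.1 in parental cells, and Csf1r at 89.3 and 107.3 in bone and 168.7 and 220.0 in liver, against 67.6 in parental cells. Over the 6 tested markers the median log2 difference was 0.33 for bone and 1.17 for liver against parental cells and -0.87 for bone against liver. Limma called 0 of the 6 in each comparison. At an unadjusted p under 0.05 there were 0, 3 and 5, where 8.17%, 7.49% and 14.1% of all genes tested were. The part of macrophages in the Serpinb9 level was not tested.

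Serpinb8, whose human counterpart inhibits furin, stood at 20.3 and 14.5 in bone and 24.6 and 22.1 in liver, against 28.2 in parental cells. Serpinb11 stood at 12.9 and 23.2 in bone and 25.9 and 24.1 in liver, against 23.4 in parental cells. Neither exceeded 28.2 on any array. In the fit the 6 clade B genes other than Serpinb5 had log2 differences from parental cells between -0.41 and 0.45 in bone and between -0.53 and 0.50 in liver.

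The secreted clade A members that could be tested were low. Serpina1c, an alpha 1-antitrypsin gene with close copies beside it on chromosome 12, stood at 17.9 and 27.1 in bone and 38.9 and 32.5 in liver, against 46.1 in parental cells. Its value can hold signal of those copies, while the 2 alpha 1-antitrypsin probe sets annotated with several genes stayed at 4.9 or below on every array. Serpina10, the protein Z-dependent inhibitor of activated clotting factor X, stood at 16.8 and 27.5 in bone and 25.4 and 27.9 in liver, against 48.9 in parental cells. Both had an unadjusted p under 0.05 for bone against parental cells and did not pass over all genes (log2 difference -0.70 ± 0.25 for Serpina1c and -0.78 ± 0.26 for Serpina10; limma adjusted p = 0.532 and 0.475). Serpina3a stood at 19.7 and 14.4 in bone and 24.3 and 13.4 in liver, against 31.0 in parental cells.

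Among the remaining secreted inhibitors, Serpind1, heparin cofactor II, which inhibits thrombin, stood at 37.0 and 14.0 in bone and 16.1 and 24.5 in liver, against 9.2 in parental cells. Serping1, the C1 inhibitor of complement, stood at 27.1 and 26.6 in bone and 22 and 17.0 in liver, against 13.4 in parental cells. On all 4 sub-line arrays both were above the parental array, at low levels, and neither passed (limma adjusted p = 0.733 and 0.608 for bone, 0.812 and 0.849 for liver). Neuroserpin, Serpini1, an inhibitor of tissue plasminogen activator in brain, stood at 27.0 and 18.7 in bone and 24.0 and 24.6 in liver, against 17.1 in parental cells. Its 2 dimmer probe sets lay on the other side of the parental value.

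**Figure D4:**
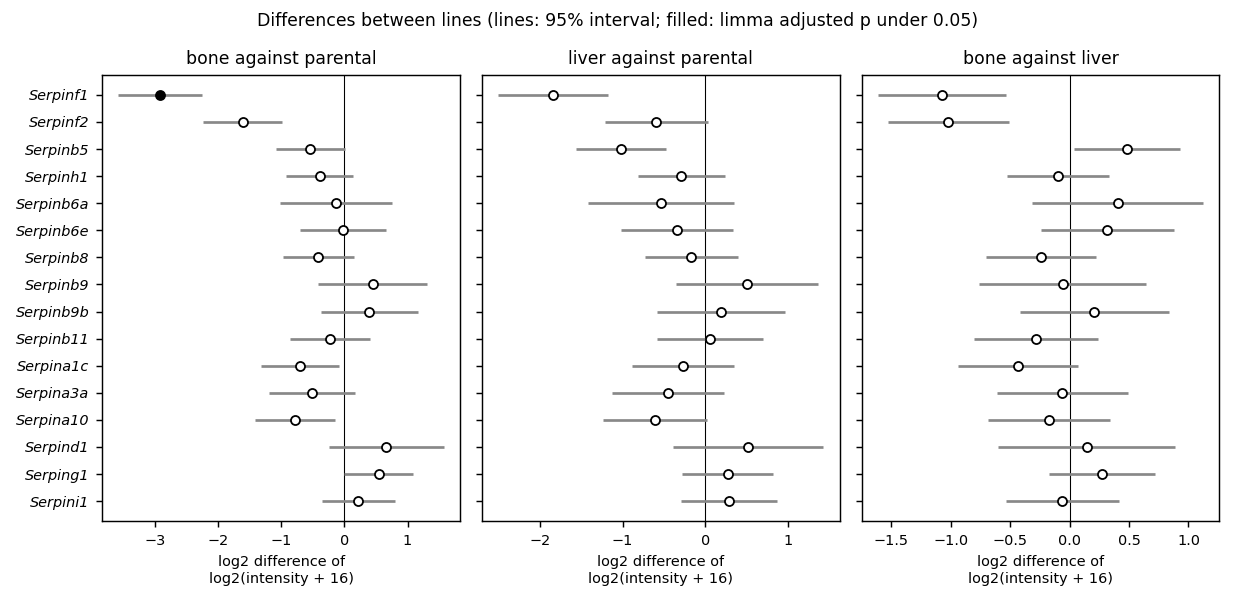
Log2 difference of log2(intensity + 16) (x axis) of the 16 serpin genes for bone against parental, liver against parental and bone against liver, with 95% intervals from limma. The filled point, Serpinf1 for bone against parental (-2.91), is the only one called at an adjusted p under 0.05. The first and middle panels share the parental array.

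Over all 3 comparisons, limma called 1 of 16 members for bone against parental cells, 0 for liver against parental cells and 0 for bone against liver. At an unadjusted p under 0.05 the numbers were 4, 2 and 3 of 16. Of all genes tested, 0.135%, 0.0159% and 0.19% were called, and 8.17%, 7.49% and 14.1% had an unadjusted p under 0.05. In bone, 9 of 16 members were below and 5 above parental cells on both arrays, as 37.7% and 33.5% of all genes tested were. In liver, 10 were below and 5 above (32.8% and 35.2% of genes). Both bone arrays were below both liver arrays for 6 members and above them for 2, Serpinb5 and Serping1 (25.9% and 21.2% of genes). The 2 comparisons with parental cells share the 1 parental array, so a deviation of that array moves both. Of the 16, 5 reached the filter on a single array (Serpina3a and Serpinb8 on the parental one, Serpind1 and Serpini1 at bone passage 3 and Serpinb11 at liver passage 1), so a difference for these is partly set by the filter. The same holds for Serping1, which reached it on the bone arrays alone, and for Serpinf2, which reached it on the parental and liver arrays and not in bone.

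The median log2 difference over all 40 members was -0.05 for bone against parental cells and -0.03 for liver against parental cells, where all 18193 genes had -0.02 and 0.003. Of the 40, 22 were lower than parental cells in the bone mean and 22 in the liver mean, while 53.7% and 49.7% of all genes were. For bone against liver the median was -0.05 over the members and -0.02 over all genes. The 24 members below the filter are drawn towards 0 by the pseudocount. Over the 16 tested members the medians were -0.31 for bone and -0.28 for liver against parental cells and -0.06 for bone against liver, where the 12609 genes tested had -0.02, 0.01 and -0.02. Of the 16, 11 were lower than parental cells in the bone mean and 10 in the liver mean, while 52.3% and 48.3% of the genes tested were. These 16 include genes that passed the filter through the parental array. Serpinf1 was the lowest member in each comparison.

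**Figure D5:**
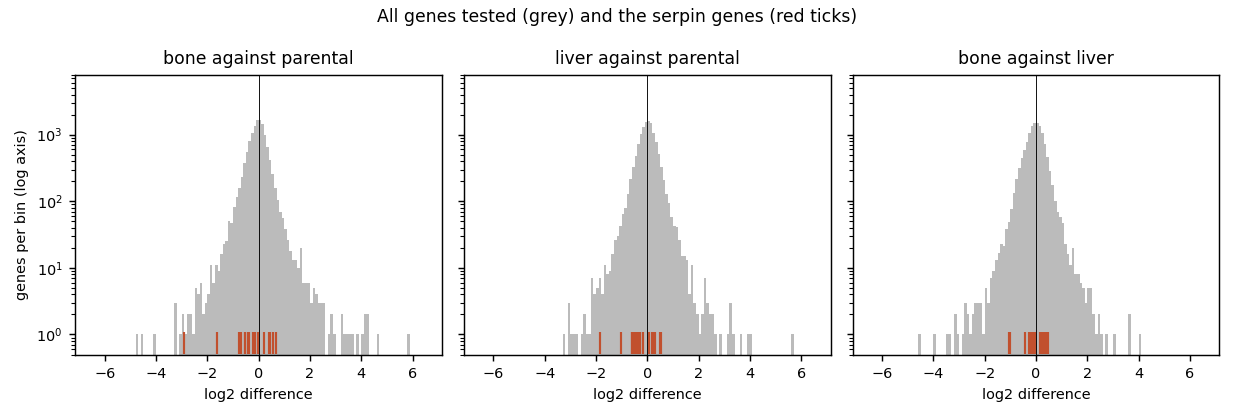
Number of genes (log y axis) by log2 difference (x axis, bins of 0.1) for the 12609 genes tested, in grey, with the 16 serpin genes as red ticks at the foot, for bone against parental, liver against parental and bone against liver. Most ticks lie near 0, and the leftmost tick in each panel is Serpinf1 (-2.91, -1.84 and -1.07).

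Between passages of a sub-line there is 1 array on each side and no replicate check. In bone passage 6 against passage 3 the 16 members had log2 differences of -0.82 (Serpind1) to 0.57 (Serpinb6a), with 0 at least 2-fold higher and 0 at least 2-fold lower. Of all genes tested 0.357% were higher and 2.07% lower by that measure. In liver passage 3 against passage 1 the differences ran from -0.45 (Serpina3a) to 0.81 (Serpinb9), again with 0 members 2-fold apart in either direction, against 1.68% of genes higher and 1.13% lower. The probe set that stood for Serpinf1 had 0.30 between the bone passages and -0.38 between the liver passages, both small beside its distance from parental cells. The second Serpinf1 probe set went the other way in bone, from 150.4 at passage 3 to 73.1 at passage 6. In liver it went from 253.5 at passage 1 to 181.8 at passage 3. The direction between the bone passages thus depends on the probe set.

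The 24 members below the filter had intensities between 0.1 and 23.8, and for 15 of them every value was under 10. They comprised 11 of the 14 clade A genes, 11 of the 18 clade B genes, antithrombin (Serpinc1) and Serpini2. Serpinb2, plasminogen activator inhibitor 2, lay just under the filter with 18.7 and 23.8 in bone and 2.4 and 15.5 in liver, against 4.0 in parental cells, and Serpinb11 lay just above it. Serpinb6b stood at 9.4 and 11.2 in bone and 9.1 and 23.4 in liver, against 1.8 in parental cells. Serpina3n, an acute-phase inhibitor, did not exceed 5.1, and Serpina6, the carrier of corticosteroids, did not exceed 13.5. Serpin genes with no probe set of a single symbol in the annotation were not analysed here.

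The proteases that serpins act on were described from a list. Of 20 tested members, limma called 0 against parental cells in either sub-line. At an unadjusted p under 0.05 there were 1 for bone and 5 for liver against parental cells, and 3 for bone against liver. Of all genes tested, 8.17%, 7.49% and 14.1% were. Limma called 1 member of the list for bone against liver, where 0.19% of all genes tested were called. The kallikrein Klk10 was called in bone against liver (log2 difference 2.17 ± 0.22; limma adjusted p = 0.0437), at 452.6 and 325.9 in bone and 78.9 and 67.5 in liver, with 421.7 in parental cells. C1s1, a complement protease that Serping1 inhibits, stood at 24.0 and 7.8 in bone and 126.0 and 80.8 in liver, with 37.7 in parental cells, a difference that did not pass (bone against liver -1.93 ± 0.32; adjusted p = 0.103). The list's median was -0.13 for bone and -0.12 for liver against parental cells and 0.01 for bone against liver, with -0.02, 0.01 and -0.02 over all genes tested. In the list of plasminogen activation and clearance, limma called 0 of 10 tested genes in each comparison, with medians of -0.09, 0.006 and -0.10. In each comparison 1 of the 10 had an unadjusted p under 0.05. For bone against parental, liver against parental and bone against liver, 8.17%, 7.49% and 14.1% of all genes tested did.

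Receptors and binding partners of the Serpinf1 protein showed no call. Limma called 0 of 6 in each comparison. An unadjusted p under 0.05 was seen for 1 in bone against parental, 1 in liver against parental and 2 in bone against liver. Of all genes tested, 8.17%, 7.49% and 14.1% had one. The medians of the 6 were 0.003, -0.19 and 0.18, against -0.02, 0.01 and -0.02 over all genes tested. Of 18 tested collagen and collagen-folding genes, the clients and partners of Serpinh1, limma called 0 in each comparison. At an unadjusted p under 0.05 there were 5, 3 and 2, where 8.17%, 7.49% and 14.1% of all genes tested were. The list's medians were -0.34, -0.17 and -0.07, against -0.02, 0.01 and -0.02 over all genes tested. A difference of 2-fold or more in every pair of arrays was seen for the prolyl hydroxylase subunits P4ha1, at 307.0 and 300.7 in bone against 727.4 in parental cells, and P4ha2, at 6.7 and 7.3 in bone and 1.1 and 3.6 in liver against 33.7 in parental cells. P4ha2 reached the filter on the parental array alone, so its difference is partly set by the filter.

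Protease inhibitors of other families included members on the opposite side from Serpinf1. Limma called 0 of 12 tested genes in each comparison. At an unadjusted p under 0.05 there were 3, 3 and 1, where 8.17%, 7.49% and 14.1% of all genes tested were. The secretory leukocyte protease inhibitor Slpi stood at 4273 and 4720 in bone and 3327 and 3694 in liver, against 1640 in parental cells. Its log2 differences were 1.44 ± 0.23 and 1.09 ± 0.23 (limma adjusted p = 0.111 and 0.292). The cystatin Cst6 stood at 399.4 and 258.5 in bone and 367.8 and 663.5 in liver, against 91.1 in parental cells (1.66 ± 0.41 and 2.25 ± 0.41; adjusted p = 0.314 and 0.221). Timp4 stood at 5.0 and 3.4 in bone against 26.8 in parental cells, and did not reach the filter in bone. The median of the list was 0.27 for bone and 0.16 for liver against parental cells and -0.08 for bone against liver.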

How the data were processed

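RNA of 5 samples was measured on 1-colour Affymetrix mouse arrays, from biotin-labelled cRNA per the labels' protocols. The authors deposited a linear intensity for each of 45101 probe sets. RMA is named in the submitters' processing notes, but the intensities do not have its log2 scale. Every array had the same trimmed mean of 150.001, and further steps are not given in the sources used here. Intensities were converted to log2(intensity + 16), so folds of dim genes are understated.

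Gene names came from the platform annotation, with 34945 probe sets of 1 gene. All 40 members matched RefSeq by gene identifier, with unchanged symbols. A probe set was kept where any array reached 25.1, the median over the whole table, and each gene was represented by its probe set of highest mean. Limma 3.58.1 (R 4.3.3) was fitted over all 5 arrays with 3 lines as groups and 12609 genes, with Benjamini-Hochberg adjustment over all of them and a call at an adjusted p under 0.05. Residual degrees of freedom were 2 and the prior added 4.20. For the single parental array, the spread between passages was taken to hold. Few arrays limit the precision. The fit was tested on simulated data.

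Members and lists were chosen with earlier results of these data known. The naming rule allowed every member, and up to 4 genes per list and comparison that were called or differed 2-fold or more in each pair of arrays. Neighbours of Serpinf1 and marker genes are named outside it. Lists are described by counts and medians. Alternatives were other filters, pseudocounts, normalizations, probe set summaries, a variance trend, a stage block, and fits without a line or an array.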

Additional observations from a re-analysis of the deposited data

How the results depend on the processing

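The direction of Serpinf1 against parental cells held in all 13 alternatives for the bone sub-line, with log2 differences of -3.07 to -2.76, but the call did not. Settings that change only the filter, the variance trend or the liver arrays left the estimate at -2.91, so for these the direction was fixed in advance. The limma adjusted p ranged from 0.0120 to 0.190, under 0.05 in 7 alternatives and above it in 6. The count of serpin genes called for bone against parental cells was 0 in place of 1 with no filter (Serpinf1 adjusted p = 0.190), with a pseudocount of 1 (0.103), with the mean of the probe sets (0.05003) and without the liver sub-line (0.0965). Leaving out liver passage 1 or liver passage 3 gave the same fit for this comparison as leaving out the liver sub-line. The 6 alternatives above 0.05 thus count this fit more than once. With bone passage 3 or bone passage 6 left out, a single bone array remained, and the log2 difference of Serpinf1 was -2.76 or -3.07. Every fit without a sub-line array, bone or liver, has fewer samples behind the spread. For liver against parental cells and bone against liver the count was 0 in every alternative run.

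The count of members at least 2-fold apart from parental cells on both bone arrays, in either direction, was 1 at a 3-fold threshold in place of 2. With a bone array left out it was 2 to 3, the third being Serpind1, higher at bone passage 3, without bone passage 6. For liver it was 2 with median centring and 1 to 2 with a liver array left out, Serpinb5 joining Serpinf1 without liver passage 3. For bone against liver it was 1 with a pseudocount of 1 (Serpinf2) in place of 0, and 0 to 1 with an array left out: 1 without bone passage 6 (Serpinf1), without liver passage 1 (Serpinf2) or without liver passage 3 (Serpinf1).

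Of 622 recomputed gene values, 18 changed sign, all of genes that were not called. The 622 include settings that cannot change a difference, as for Serpinf1 above. For bone against parental, Serpinb6e was 0.0121 with median centring and 0.00649 with quantile normalization. For bone against liver, median centring gave 0.00972 for Serpina3a, 0.0158 for Serpinb9 and 0.0119 for Serpini1, and quantile normalization gave 0.00984 for Serpinb9. With arrays left out, the ranges that cross 0 were -0.42 to 0.16 for Serpinb6a and -0.17 to 0.11 for Serpinb6e in bone against parental, and -0.0534 to 0.43 for Serpinb9b in liver against parental. In bone against liver they were -0.38 to 0.0291 for Serpina10, -0.29 to 0.16 for Serpina3a, -0.46 to 0.35 for Serpinb9, -0.0307 to 0.45 for Serpinb9b, -0.27 to 0.56 for Serpind1 and -0.22 to 0.0936 for Serpini1. The cause of these changes was not tested.

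The replicate block, here the early or final stage, was fitted for bone against liver and called 0 of 16 members (3 at an unadjusted p under 0.05; Serpinf1 adjusted p = 0.0932). The labels do not pair the samples. The final minus early differences of bone and liver had a Pearson's r of 0.097 over the 12609 genes, a description across genes. Of the 40 members, 24 were below 25.1 on every array and had no test.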
